A study of Mus musculus with 4 samples.

Results

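The genes described here encode 10 chains of the IL-23, IL-12 and IL-6 receptor family, taken by symbol from the 50600 genes listed in each count table: Il23r, Il12rb1, Il12rb2, Il6ra, Il6st, Il27ra, Osmr, Lifr, Il11ra1 and Il31ra. All 10 symbols were found once, all as protein-coding genes, and 9 of them had enough counts to be tested. RNA was sequenced from 4 libraries of mouse T helper 17 (Th17) cells, primary cells of the C57BL/6NJ strain, numbered as biological replicates 1 to 4 in the labels. The cells were differentiated from CD4 T cells in culture, by a protocol linked in the labels, and 72 hr stands in the file headers. All 4 libraries belong to 1 group, with no treated, mutant or control arm, and sex and age are not given. The labels list 4 biosamples under 1 donor identifier, and nothing says that they came from separate animals or cultures. Every p-value here therefore reflects the spread among these samples alone, which may be technical.

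Receptors of this family are built from chains that share an extracellular fold and signal through JAK kinases and STAT factors. gp130, the product of Il6st, is the common signalling chain for IL-6, IL-11, IL-27, leukemia inhibitory factor (LIF) and oncostatin M (OSM). Each of them also needs a further chain. IL-12 and IL-23 instead share IL-12Rβ1, the product of Il12rb1, which pairs with IL-12Rβ2 for IL-12 and with IL-23R for IL-23. In CD4 T cells IL-6 starts Th17 differentiation through STAT3, IL-23 sustains it, IL-12 drives the Th1 fate through STAT4, and IL-27 restrains Th17 cells.

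The label was checked against markers. All 8 T cell genes of the marker list lay above 1 TPM (a length-corrected level that sums to the same total in every library), and so did all 6 Th17 genes. Of all 17337 genes tested 70.7% lay above 1 TPM too, so these counts alone do not decide the cell type. Genes of other lymphocytes were present as well. Of 6 B cell genes 2 lay above 1 TPM, Ebf1 at 42.5 ± 2.17 and Ighm at 64.2 ± 5.37 TPM (SD, n = 4), and the list summed to 105 to 114 TPM, while Ms4a1 had 0.0141 TPM. Of 2 CD8 T cell genes Cd8b1 had 42.0 ± 7.49 TPM (SD, n = 4) and Cd8a 0.0379 TPM, and none of 5 NK cell genes lay above 1 TPM, with Ncr1 at 0. The summed level of the Th17 genes was 5354 to 6135 TPM in replicates 1, 3 and 4 and 1344 TPM in replicate 2, while the T cell genes summed to 2722 to 2947 TPM in all 4. Replicate 2 therefore stood apart in the Th17 genes. Total counts ranged from 33123029 to 37746767 per library, and the 10 receptor genes together took 9646 to 12297 counts per library.

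The order of levels is the first result. Il12rb1, Il12rb2, Il27ra and Il23r stood highest, Il6ra and Il6st were lower, Il11ra1 and Osmr stood near the low end, Lifr was detected by few counts and Il31ra by none. In the test of each gene's level against 1 TPM, 8 of the 9 tested genes lay above and 1, Lifr, lay below (edgeR quasi-likelihood test with Benjamini-Hochberg adjustment). Of all 17337 genes tested, 70.7% lay above and 16.2% below, so 8 of 9 above is not far from the share of all genes. The same 8 genes lay above 1 TPM without each replicate in turn.

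**Figure D1:**
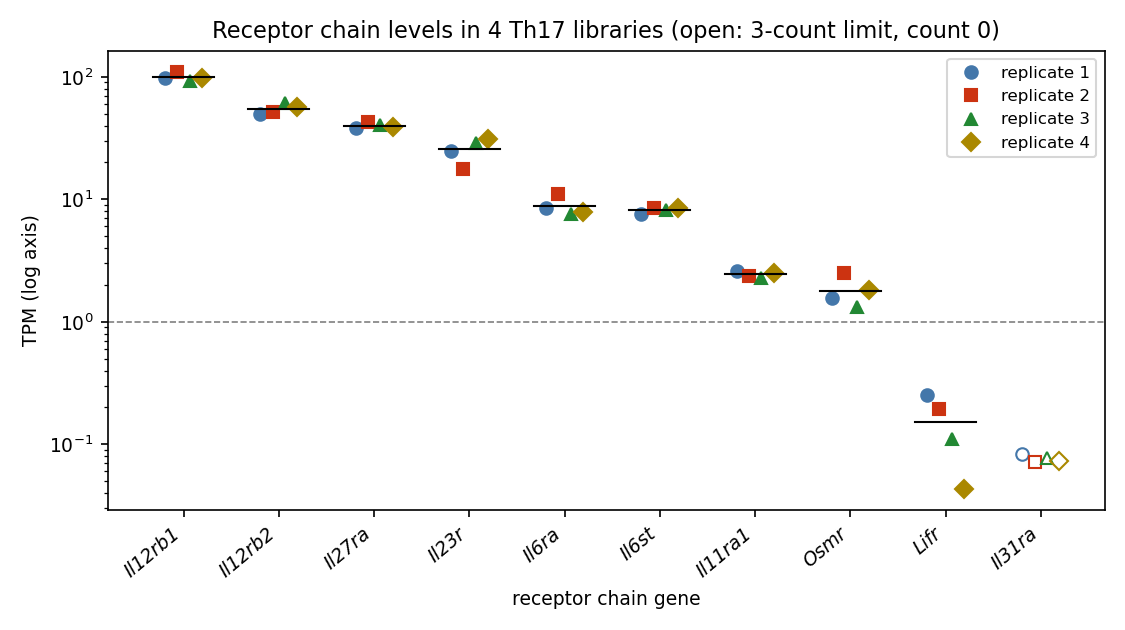
The level of each receptor chain gene in TPM on a log axis, with 1 symbol per library, a black bar for the mean of the 4 libraries and a dashed line at 1 TPM. The open symbols of Il31ra stand at the level that 3 counts would give, since no library had a count. Il12rb1 lies highest in every library and the symbols of Il6ra and Il6st overlap.

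Il12rb1 encodes the chain shared by the IL-12 and IL-23 receptors. Its level was 97.1, 110, 92.5 and 97.3 TPM in replicates 1 to 4, with a mean of 99.3 ± 7.65 TPM (SD, n = 4). It had the highest value of the family in every library, and ranked 2157 among 21764 protein-coding genes by mean TPM. The gene (ENSMUSG00000000791.9) lies at chr8:70808449-70821424 on mm10, on the plus strand.

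Il12rb2 encodes the chain specific to IL-12. It had 50.02, 51.8, 61.4 and 56.5 TPM, with a mean of 55.0 ± 5.11 TPM (SD, n = 4). It was second in every library, and its values did not overlap those of Il12rb1 or of Il27ra. On mm10 it (ENSMUSG00000018341.12) lies at chr6:67291318-67376188 on the minus strand. Of its exon bases 40.04% lie opposite exons of Serbp1, a gene on the plus strand that had 137 ± 5.81 TPM (SD, n = 4). The counting used strand, and how many reads of Serbp1 were counted for Il12rb2 through imperfect strand marking was not tested.

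Il23r encodes the chain specific to IL-23. It had 24.9, 17.7, 29.0 and 31.3 TPM in replicates 1 to 4, which made replicate 2 the lowest and left its value outside the range of the other 3. Without replicate 2 the mean was 28.4 ± 3.24 TPM (SD, n = 3). The gene (ENSMUSG00000049093.9) lies at chr6:67422932-67491855, on the minus strand. It shared no word of 50 bases with transcripts of other genes and no exon base with another gene.

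Il23r and Il12rb2 are neighbours with 46.7 kb between them and no protein-coding gene in the gap, and both are read from the minus strand. Their promoters are shown because the neighbours differed in level and in replicate 2 (below). Each line gives the 250 bases before the RefSeq start on GRCm38.p6, 5′ to 3′ on the gene's strand. Capitals mark matches of 5 motifs searched on both strands. These were AGGTCA, the core of ROR and other nuclear receptor sites, TTCNNNGAA, a STAT motif, TGANTCA, an AP-1 motif, AGGTGTGA, a T-box motif, and the longer ROR response element, which contains the first.
Il23r, chr6:67491856-67492105, minus strand: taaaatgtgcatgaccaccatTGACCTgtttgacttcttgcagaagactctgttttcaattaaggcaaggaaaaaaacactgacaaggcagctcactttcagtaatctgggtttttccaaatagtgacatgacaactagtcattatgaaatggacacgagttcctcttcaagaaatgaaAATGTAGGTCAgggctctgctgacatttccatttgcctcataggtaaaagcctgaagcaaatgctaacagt
Il12rb2, chr6:67376189-67376438, minus strand: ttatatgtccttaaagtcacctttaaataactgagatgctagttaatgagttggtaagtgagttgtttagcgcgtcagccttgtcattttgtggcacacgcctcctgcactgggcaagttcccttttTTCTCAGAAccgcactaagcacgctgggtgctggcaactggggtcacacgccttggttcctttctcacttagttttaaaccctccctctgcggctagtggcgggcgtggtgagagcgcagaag

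The Il23r window held the AGGTCA core on both strands, 229 to 224 and 66 to 61 bases before the start. The core nearer the start was part of a full ROR response element, AATGTAGGTCA, which began 71 bases before the start. At least 1 AGGTCA was found in 14.0% of all 32851 promoter windows of the RefSeq table, at least 2 in 1.36% and the full element in 0.332%. The full element was searched for after the Il23r sequence had been seen. The Il12rb2 window held no AGGTCA and held the STAT motif TTCNNNGAA, as TTCTCAGAA, 123 to 115 bases before the start, a motif present in 7.02% of all windows. Its G and C content was 50%, against 39.6% in Il23r and a median of 52.4% over all windows. Windows were found for 8 of the 10 genes, 10 windows in all; Il12rb1 and Il27ra had none. Of the others, Lifr held an AGGTCA in 1 of its 2 windows, Il31ra held a STAT motif, and Il6ra, Il6st, Osmr and Il11ra1 held no match of these letters. A match describes the letters only and is not evidence of binding.

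Il27ra encodes the chain that makes the IL-27 receptor together with gp130. It had 38.0, 42.4, 40.3 and 39.0 TPM, with a mean of 39.96 ± 1.89 TPM (SD, n = 4), a coefficient of variation of 4.73% that was the lowest of the 9 detected genes. It (ENSMUSG00000005465.9) lies at chr8:84030294-84042589, on the minus strand. It stood above Il23r in every library, and the values of the 2 genes did not overlap.

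Il6ra encodes the chain that binds IL-6. Its level was 8.48, 11.1, 7.61 and 7.83 TPM, with replicate 2 above the range of the others. Il6st, the gp130 gene, had 7.57, 8.47, 8.19 and 8.56 TPM, a narrower range that lay within the range of Il6ra in 3 libraries of 4. The means were 8.75 ± 1.59 TPM for Il6ra and 8.20 ± 0.448 TPM for Il6st (SD, n = 4), a difference smaller than their spread. Il6ra (ENSMUSG00000027947.11) lies at chr3:89864059-89913196 on the minus strand, and Il6st (ENSMUSG00000021756.12) at chr13:112464070-112510086 on the plus strand. The summed exon lengths behind these levels are long, 8642 bases for Il6ra and 11099 for Il6st. A level per length is lower where a gene model holds long or rarely used exons. In CPM, the counts scaled to equal library totals with no length correction, the means were 27.3 for Il6st, 22.7 for Il6ra and 19.1 for Il23r, so that Il23r no longer stood above the other 2.

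Il11ra1 encodes the IL-11 binding chain. It had 2.62, 2.38, 2.26 and 2.497 TPM, with a mean of 2.44 ± 0.155 TPM (SD, n = 4). Its level is uncertain, because 46.3% of the 50-base words of its transcripts also occur in transcripts of Gm13305, a near-identical copy, and 15.8% in those of Il11ra2. Both copies had 0 counts in every library. By default the counter skips reads that map to several places, so the values of Il11ra1 and of both copies may be too low. It (ENSMUSG00000073889.10) lies at chr4:41699989-41769474, on the plus strand.

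Osmr encodes the OSM receptor chain, which also serves the IL-31 receptor. It had 1.56, 2.48, 1.31 and 1.83 TPM, highest in replicate 2, with a mean of 1.79 ± 0.503 TPM (SD, n = 4). Its range overlapped that of Il11ra1, which was higher in 3 of 4 libraries. In CPM, with no length correction, the order was reversed, with means of 6.53 for Osmr and 3.27 for Il11ra1. Osmr (ENSMUSG00000022146.12) lies at chr15:6813577-6874969 on the minus strand.

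Lifr encodes the LIF receptor chain. It had 26, 23, 12 and 5 counts in replicates 1 to 4, or 0.254, 0.194, 0.111 and 0.0432 TPM, and lay below 1 TPM with a log2 level of −2.74 ± 0.47 (SE; edgeR, adjusted p = 0.00106). Replicate 4 was the lowest. Its log2 change against the other 3 was −2.11, with an unadjusted p under 0.05 and an adjusted p of 1 (edgeR quasi-likelihood test). The gene (ENSMUSG00000054263.11) lies at chr15:7129559-7197489 on the plus strand.

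Il31ra encodes the chain that binds IL-31. It had 0 counts of 143691517 over the 4 libraries, which allows a level of up to 0.0209 CPM at 3 counts, a limit for counting error only. Per library, 3 counts would stand for 0.0715 to 0.0826 TPM. The gene (ENSMUSG00000050377.7) lies at chr13:112522810-112580662 on the minus strand.

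Chains that signal together were then compared within each library, as differences of log2(TPM + 0.1). IL-12Rβ1 transcripts exceeded those of both of its partners. Il23r stood below Il12rb1 by a log2 ratio of −1.98 ± 0.46 (SD, n = 4, exact two-sided sign-flip permutation p = 0.125), or 3.11 to 6.20 times lower. The ratio of Il12rb2 to Il12rb1 was −0.85 ± 0.22 (SD, n = 4, exact permutation p = 0.125). Between the 2 specific chains Il23r stood below Il12rb2 at −1.12 ± 0.30 (SD, n = 4, exact permutation p = 0.125), in 4 of 4 libraries. In replicate 2 these ratios were −2.63 for Il23r to Il12rb1 and −1.55 for Il23r to Il12rb2, the lowest of the 4 libraries. Without replicate 2 the mean ratios were −1.76 and −0.98.

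Against gp130, its partner chains ranged from above to far below. Il27ra stood above Il6st at a log2 ratio of 2.27 ± 0.07 (SD, n = 4, exact permutation p = 0.125). The ratio of Il6ra to Il6st was 0.08 ± 0.24 (SD, n = 4, exact permutation p = 0.625), positive in replicates 1 and 2 and negative in replicates 3 and 4. Osmr stood below Il6st at −2.17 ± 0.34, Il11ra1 at −1.71 ± 0.15 and Lifr at −5.13 ± 0.63 (SD, n = 4, exact permutation p = 0.125 for each). Osmr was 2.96 ± 0.64 above Lifr (SD, n = 4, exact permutation p = 0.125), and at least 16.8-fold above Il31ra in every library, taken against 3 counts of Il31ra per library. Of 9 distinct pairs tested, 8 had the same direction in 4 of 4 libraries; the smallest p that 4 libraries allow is 0.125, and adjusted over the 9 pairs it was 0.141, so none passed. The sizes depended on the length and the pseudocount used, though these 8 directions did not. Without length correction the ratio was 0.62 for Il27ra to Il6st, −3.02 for Il11ra1 to Il6st, −2.70 for Il23r to Il12rb1 and −1.73 for Il23r to Il12rb2. With the longest coding transcript as length Il11ra1 to Il6st was −0.93 and Osmr to Il6st −1.41. Lifr lies near the pseudocount, and with 0.5 or 0.01 TPM in its place Osmr to Lifr was 1.80 or 3.69 and Lifr to Il6st −3.75 or −5.91.

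**Figure D2:**
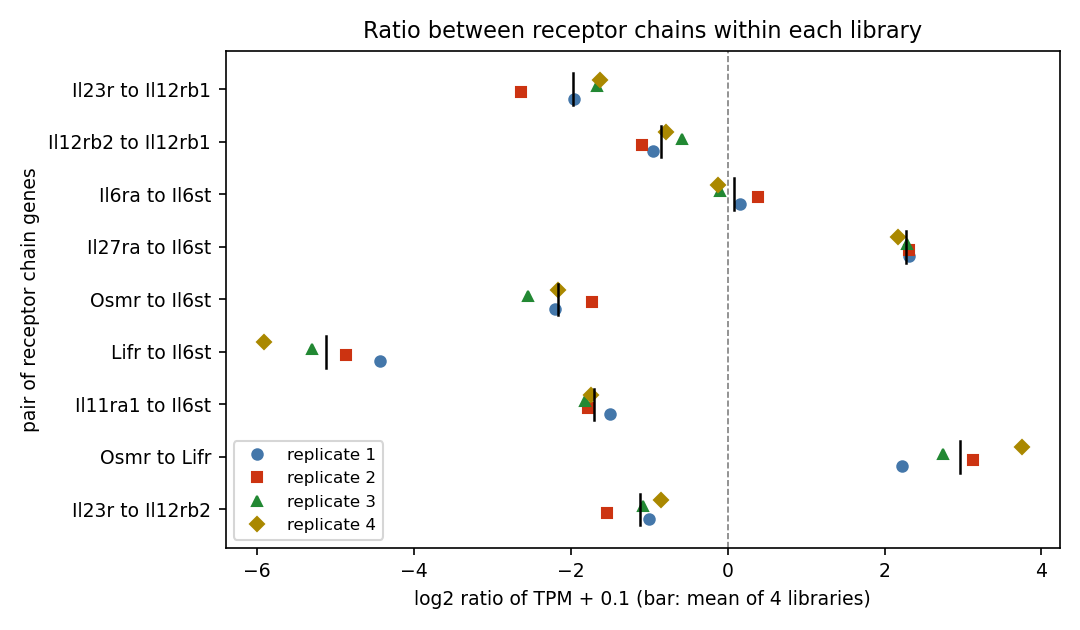
The log2 ratio between pairs of receptor chain genes within each library, from TPM + 0.1, with 1 symbol per library and a black bar for the mean of 4 libraries. The symbols lie on 1 side of 0 for every pair except Il6ra to Il6st, and replicate 2 has the lowest ratio of Il23r to Il12rb1, at −2.63.

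Of the receptor genes, 3 pairs lie within 1 Mb of each other, and the members of each pair differed in level. Il12rb2 was 1.81 to 2.92 times as high as Il23r. Il6st and Il31ra lie 12.7 kb apart with their 3′ ends facing and no gene between. Il6st was at least 91.6-fold above Il31ra in every library, against 3 counts per library. Osmr and Lifr lie 255 kb apart with their 5′ ends facing, and Osmr was 4.68 to 13.5 times as high as Lifr on the TPM + 0.1 scale. The nearest protein-coding genes around Osmr and Lifr were Rictor, a subunit of an mTOR complex, at 36.8 ± 3.62 TPM, and Egflam at 2.06 ± 1.23 TPM (SD, n = 4). In replicate 2 Egflam was higher, as Osmr was, at a log2 change of 1.49 ± 0.19, and Rictor lower at −0.23 ± 0.05 (SE; edgeR, adjusted p = 4.11e-06 and 0.00152).

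**Figure D3:**
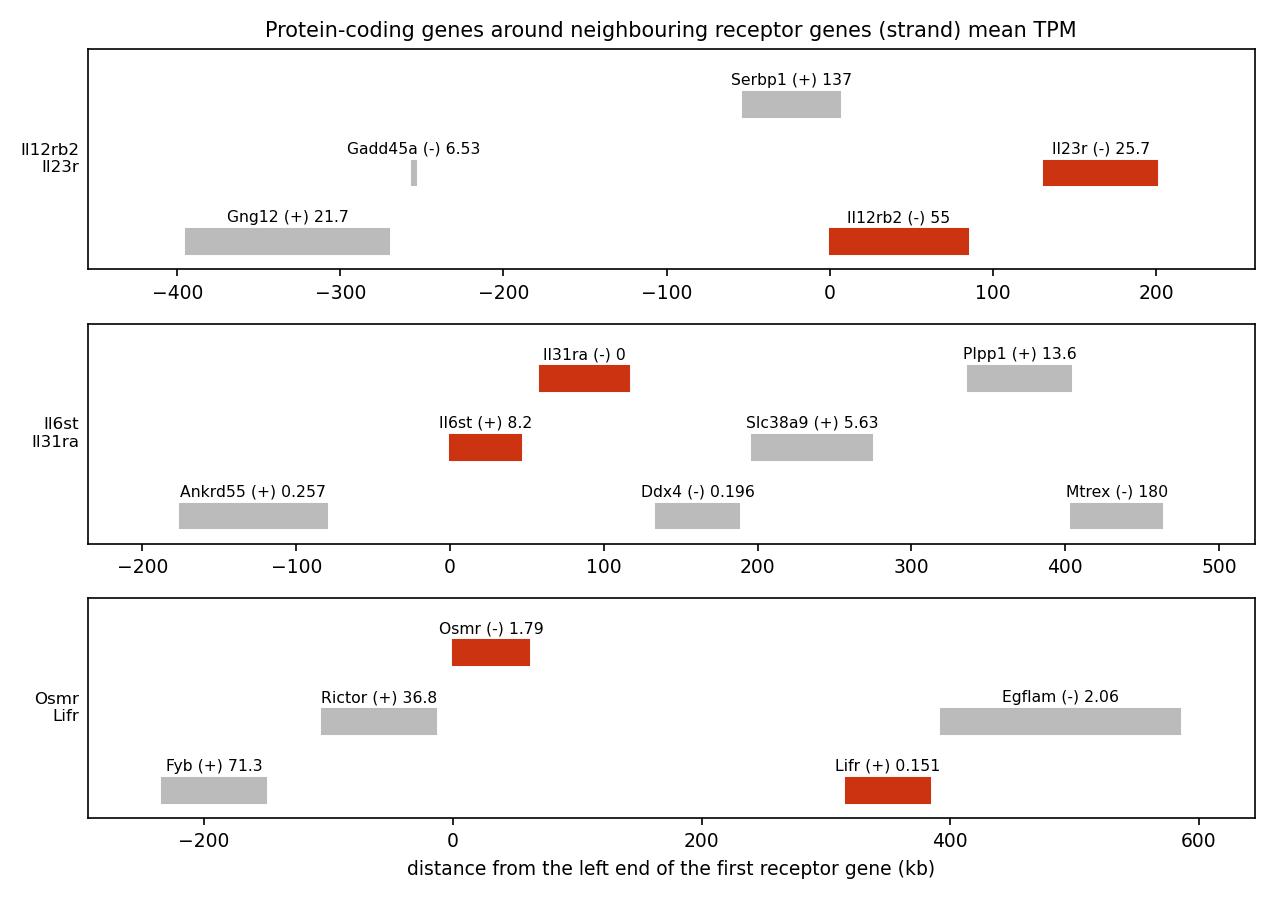
Protein-coding genes reported here within 300 kb of each pair of neighbouring receptor genes, drawn to scale as distance in kb from the left end of the first receptor gene, with strand and mean TPM over 4 libraries. Receptor genes are red and others grey. Il31ra, listed at 0, lies beside Il6st at 8.20 TPM.

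The next question was whether the receptor genes differed between libraries. In replicate 2, 4 of 9 tested genes differed from the other 3 libraries, with Il6ra, Osmr and Il12rb1 higher and Il23r lower, against 22.5% of all genes (edgeR quasi-likelihood test with Benjamini-Hochberg adjustment). Of all genes 11.7% were higher and 10.9% lower. The 4 genes were called with DESeq2 and without replicate 1, 3 or 4 as well. Each such test compares 1 library with 3, not conditions, and takes the lone library to vary as the other 3 do. The shares over all genes include genes with few counts, and a larger share was called under the filter of 100 summed counts.

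Il23r was lower in replicate 2 by a log2 change of −0.62 ± 0.12 (SE; edgeR quasi-likelihood test, adjusted p = 0.000865). Il6ra was higher at 0.53 ± 0.10 (SE; edgeR, adjusted p = 0.00036), from 7.97 ± 0.452 TPM in the other 3 libraries to 11.1 TPM. Osmr was higher at 0.72 ± 0.17 (SE; edgeR, adjusted p = 0.00316), from 1.57 ± 0.258 to 2.48 TPM. The smallest called change was that of Il12rb1, higher at 0.27 ± 0.05 (SE; edgeR, adjusted p = 0.000267). For these 4 genes the value of replicate 2 lay outside the range of the other libraries. Both chains of the IL-23 receptor were thus called in this library, in opposite directions.

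The other 5 tested genes had no call in replicate 2. Il27ra had a change of 0.18 ± 0.08 (SE; edgeR, adjusted p = 0.122) with its value just above the range of the others. Il6st had 0.12 ± 0.10, Il12rb2 −0.05 ± 0.09, Il11ra1 0.02 ± 0.22 and Lifr 0.59 ± 0.72 (log2 ± SE). The median change of the 9 genes was 0.18, beside −0.01 for all genes tested.

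In replicates 1, 3 and 4 none of the 9 genes differed, and neither did any of the 17337 genes (edgeR quasi-likelihood test; 0% called in each comparison). At an unadjusted p under 0.05 the counts over all genes were 166, 257 and 128, and the only receptor gene among them was Lifr in replicate 4. DESeq2 called 2, 15 and 3 genes, none of the family. In these comparisons replicate 2 is among the 3 libraries set against the lone library and widens their spread. Without it, 68, 108 and 9 genes were called, again none of the family. In the test of variability over the 4 libraries no receptor gene passed, against 0.0346% of all genes (6 genes, and 0 without replicate 1, 3 or 4), nor without replicate 2; 0 of 9 had an unadjusted p under 0.05, and Il12rb2 and Lifr did without replicate 2.

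**Figure D4:**
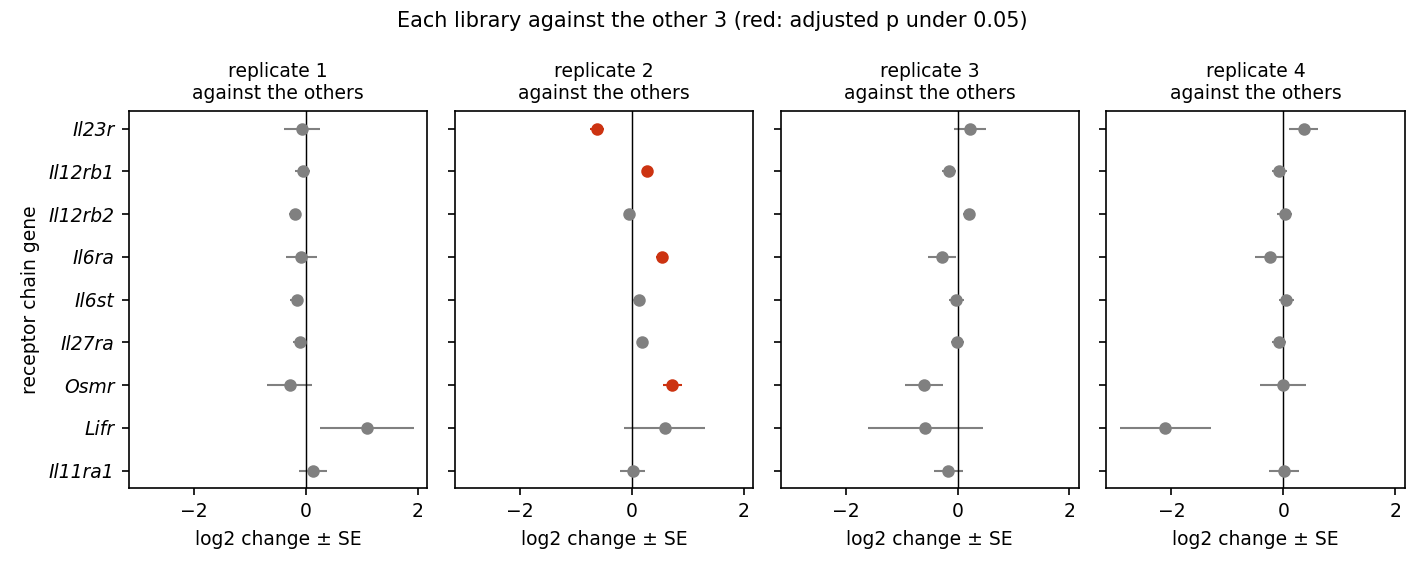
The log2 change of each tested receptor chain gene in each library against the other 3, with SE bars; red points have an adjusted p under 0.05. Red points occur in replicate 2 alone, where Il23r lies at −0.62 and Il6ra, Osmr and Il12rb1 lie above 0.

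Il23r and Il12rb2 were matched with other genes by their profile over the libraries. Among 9507 protein-coding genes with a mean of at least 5 TPM, the log2 profiles nearest to that of Il23r were those of Rybp, E130311K13Rik and Tmcc3, with root mean square distances of 0.0118, 0.0354 and 0.0401 over 4 libraries. For Il12rb2 they were Zfp39, Prnp and Tanc1, at 0.0189, 0.0225 and 0.0251. These are by selection the nearest of 9507 genes over only 4 libraries, and nothing more is drawn from these names.

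The cytokines that these chains bind were measured in the same libraries. Of 13 ligand genes 8 lay above 1 TPM, 0 below, 3 had no call and 2 had too few counts to be tested. Of all genes tested 70.7% lay above and 16.2% below. Lif was the highest at 300.2 ± 22.5 TPM, with 281 to 329 TPM in the 4 libraries, while its receptor chain Lifr had at most 0.254 TPM. Osm had 65.6 ± 6.69 TPM against 1.79 ± 0.503 TPM of Osmr (SD, n = 4). LIF and OSM transcripts were therefore abundant in libraries with few transcripts of Lifr and Osmr.

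Ebi3, the subunit that IL-27 and IL-35 share, had 130 ± 8.61 TPM, and Il27, the other subunit of IL-27, 5.91 ± 1.33 TPM (SD, n = 4). Il6 had 23.2 ± 3.70 TPM, above Il6ra in every library. Il23a, the subunit specific to IL-23, had 5.89, 2.22, 6.86 and 4.45 TPM in replicates 1 to 4. Its partner Il12b had 5, 18, 2 and 0 counts, and Il12a 1 count in all. Clcf1 had 8.96 ± 0.479 TPM and Il11 1.73 ± 0.706 TPM (SD, n = 4), and Il31 had 0 counts. In replicate 2 Lif was higher at 0.24 ± 0.05 and Il23a lower at −1.31 ± 0.28 (log2 ± SE; edgeR, adjusted p = 0.00144 and 0.00177), and the other 9 tested ligand genes had no call. Of all genes tested 22.5% were called in that library.

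**Figure D5:**
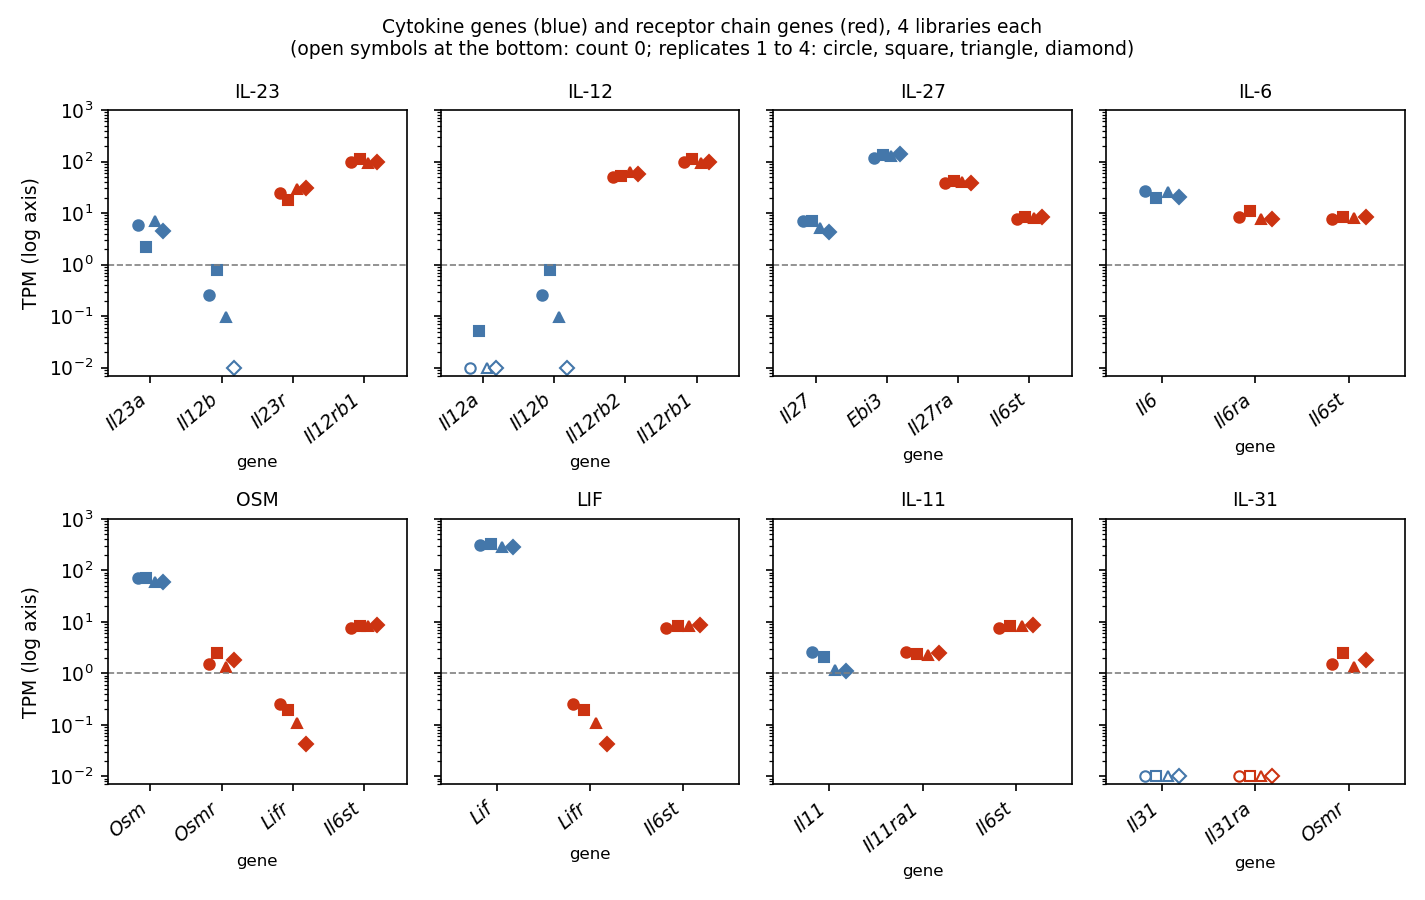
Levels in TPM on a log axis of the cytokine genes (blue) and the receptor chain genes (red) of 8 cytokines, with 1 symbol per library and open symbols at the bottom for a count of 0. Lif lies at 281 to 329 TPM and Lifr at 0.254 TPM or below, while both IL-23 receptor chains lie above 10 TPM.

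Chains of the family outside the 10 had few counts or none. Csf3r, the receptor of granulocyte colony-stimulating factor, and Il11ra2 had 0 counts. Cntfr, the ciliary neurotrophic factor chain, had 1 and Lepr, the leptin receptor, had 9 counts over the 4 libraries. Il11ra2 shares sequence with Il11ra1, so reads that map to both may have been skipped, and its count of 0 may be too low.

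Signalling genes downstream of the chains were abundant. For the lists here and below, 70.7% of all genes tested lay above 1 TPM. In replicate 2, 22.5% of all genes tested were called. All 8 kinase and STAT genes lay above 1 TPM, led by Jak2 at 407 ± 72.4 (443 ± 6.74 without replicate 2, SD, n = 3), Stat5a at 341 ± 16.7, Stat3 at 256 ± 8.78 and Stat5b at 198 ± 12.6 TPM (SD, n = 4). Jak2, the kinase that works with Tyk2 below the IL-12 and IL-23 receptors, was lower in replicate 2 at −0.51 ± 0.04 and Stat4 at −0.15 ± 0.05, while Tyk2 was higher at 0.19 ± 0.05 (log2 ± SE; edgeR, adjusted p = 2.99e-08, 0.0227 and 0.00678). The changes of Stat3 and Jak1, −0.02 and 0.003, had no call.

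All 9 feedback and phosphatase genes lay above 1 TPM, led by Ptpn6 at 429 ± 29.9, Cish at 141 ± 8.06, Socs3 at 122 ± 15.5 and Socs1 at 119 ± 24.2 TPM (SD, n = 4). Socs3, whose protein binds gp130 and blocks its signalling, was higher in replicate 2 at 0.40 ± 0.05, and so was Socs1 at 0.55 ± 0.11 (log2 ± SE; edgeR, adjusted p = 3.98e-06 and 0.00179). Ptpn2 was lower at −0.26 ± 0.06 and Ptpn6 at −0.14 ± 0.05 (log2 ± SE; edgeR, adjusted p = 0.00164 and 0.0342). Of the proteases that shed the IL-6 receptor from the cell surface, Adam10 had 97.9 ± 10.5 and Adam17 68.0 ± 2.35 TPM (SD, n = 4), and Adam10 was lower in replicate 2 at −0.25 ± 0.05 (log2 ± SE; edgeR, adjusted p = 0.0014).

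Of 10 transcription factors tied to the receptor genes 9 lay above 1 TPM, led by Batf at 954 ± 35.3, Irf4 at 279 ± 13.5, Runx3 at 123 ± 4.98 and Tbx21 at 31.6 ± 12.8 TPM (SD, n = 4; 37.8 ± 2.83 without replicate 2, n = 3), and Prdm1 lay below at 0.222 ± 0.0444 TPM. In replicate 2, 4 of the 10 were lower and 0 higher, beside 10.9% lower and 11.7% higher of all genes tested. Tbx21, the Th1 regulator, was lower at −1.51 ± 0.12 while Il12rb2, a gene induced in Th1 cells, had −0.05 ± 0.09 and no call. Rora, an ROR factor, was lower at −0.63 ± 0.05, beside −0.62 ± 0.12 for Il23r. Links between these factors and the receptor genes were not tested. Maf was lower at −0.70 ± 0.17 and Runx1 at −0.36 ± 0.07 (log2 ± SE; edgeR, adjusted p = 4.53e-09 for Tbx21, 5.64e-09 for Rora, 0.00484 for Maf and 0.00053 for Runx1).

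Some of these chains are best known from cells other than T cells, so marker levels are given beside the low receptor genes. In bulk RNA, fewer cells of a type and less RNA per cell cannot be told apart. Of 7 fibroblast and stromal markers 3 lay above 1 TPM, and their summed level was 855 to 965 TPM in replicates 1, 3 and 4 and 1371 TPM in replicate 2, the library where Osmr was highest. The list went both ways there, with Lum and Dcn higher at 0.66 and 1.30 and Pdgfrb lower at −1.26 (log2; edgeR, adjusted p = 3.32e-06, 1.22e-07 and 0.00153). Nearly all of it was Lum, the lumican gene, at 1011 ± 237 TPM (SD, n = 4), whereas the collagen genes Col1a1 and Col1a2 had 0.835 ± 0.125 and 0.00922 ± 0.00875 TPM (SD, n = 4) and Col3a1 had 0 counts. The 5 endothelial markers summed to 0.129 to 0.790 TPM, with Cdh5 and Emcn at 0. The 6 epithelial markers summed to 1.31 to 1.83 TPM, with Cdh1, Krt8 and Krt14 at 0. Of 9 myeloid and dendritic markers 3 lay above 1 TPM and the sum was 22.3 to 35.8 TPM, highest in replicate 2, with Lyz2 at 0. Of this list Flt3 had 11.5 TPM in replicate 2 and 0.848 to 1.29 TPM in the others, and was higher there at 3.58, while Adgre1 was lower at −0.54 (log2; edgeR, adjusted p = 3.32e-12 and 0.0136). The part of such cells in the levels of Osmr, Il6ra and Lifr was not tested.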

How the data were processed

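Gene counts were deposited by the authors as 1 table per library, made per the file headers with featureCounts 1.4.6-p4 on GENCODE M13 exons of mm10, counting read pairs by strand. The aligner was not given in the sources used here. Per the labels the assay is total RNA-seq, while the linked library protocol is titled for poly(A)+ RNA. Symbols came from GENCODE vM21 by identifier, matching 50376 of 50600 genes.

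Levels were computed here as count over the deposited exon length, scaled to the same total in each library (TPM). Genes with at least 10 summed counts were tested with edgeR 4.0.16 (R 4.3.3, quasi-likelihood, robust prior). Each level was tested against 1 TPM, scaled by length and library without TMM. Each replicate was tested against the other 3 with TMM. Benjamini-Hochberg adjustment covered 17337 genes, with a threshold of 0.05. The SE given with these edgeR tests is the size of the estimate over the square root of its F statistic. It is approximate and was not taken from the fit itself. A variability test, also with TMM, compared each gene's quasi-dispersion with the trend. The models were run on simulated counts. For the replicate test the simulated lone library varied as the others did, and few genes were changed. The simulation therefore does not show how that test behaves where this does not hold. Chain ratios used log2(TPM + 0.1) and exact two-sided sign-flip permutation tests (numpy 2.4.6). Alternatives were DESeq2 1.42.0, other size factors, filters, pseudocounts and lengths, and leaving out each replicate. Limits given for a count of 0 use 3 counts and cover counting error only. Total counts of 33123029 to 37746767 per library make 3 counts worth 0.0795 to 0.0906 CPM.

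Members and lists were chosen with earlier results of these data known. The rule named all 10 receptor genes, the 4 highest genes of each pathway list, up to 4 with the largest called change, every chain outside the 10, and the 3 nearest profiles of Il23r and Il12rb2. Ligand genes beyond these, Stat3 and Jak1 in replicate 2, Prdm1, single marker genes and neighbouring genes were named after their values were seen. Promoter sequences are RefSeq windows on GRCm38.p6. Protein sequences were not used here. A ligand gene and a marker gene of the fixed lists and a neighbouring gene are not reported here.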

Additional observations from a re-analysis of the deposited data

Results flagged for a closer look

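No receptor gene had a library that stood far from the other 3 by Dixon's gap criterion, but 7 of the 58 sets of 4 values examined (gene levels and chain ratios) did. Chance alone gives about 1 in 20 for independent sets. These sets share the same 4 libraries, and the ratios reuse gene levels, so the flags are not independent and that rate is no test of their number. In replicate 2 the low values were those of Jak2 at 298.8 TPM, Stat4 at 81.3, Adam17 at 64.5, Rora at 19.2, Irf4 at 259 and Runx1 at 13.2 TPM. Of these, Jak2, Stat4, Rora and Runx1 also passed the test of replicate 2 against the others, and Irf4 and Adam17 did not. Replicate 3 had the high value of Cntf, 1.51 TPM, from 42 counts over the 4 libraries.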

How the results depend on the processing

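Of 309 values recomputed under alternative settings for 37 results, 304 were labelled the same as the main setting. For levels and changes this meant the same direction and side of the threshold, and for counts of receptor genes the same count. Ratios were labelled by direction alone, since no p for them could fall under 0.05. The pairs Il12rb2 with Il23r and Osmr with Lifr entered both as partner chains and as neighbours. The ratio of Il6ra to Il6st, 0.08 on the log2 scale, was −0.28 without length correction, −0.27 with the longest coding transcript as length (an alternative chosen after seeing the data) and −0.0229 without replicate 2, with a range of −0.0229 to 0.15 over the replicates left out. Without replicate 3 the change of Il12rb2 in replicate 2 was 0.0195 (range −0.12 to 0.0195) and that of Il11ra1 was −0.0420 (range −0.0420 to 0.0663); neither was called in any setting. The number of genes called in replicates 1, 3 and 4 was 0, and 68, 108 and 9 without replicate 2; in replicate 3 it was 17 with no filter beyond 1 count. The variability test called 6 genes, 79 without replicate 2, and 0 without replicate 1, 3 or 4, with the filter of 100 counts or without the robust prior. Over the replicates left out, the change in replicate 2 ranged from −0.70 to −0.55 for Il23r, 0.61 to 0.85 for Osmr and 0.154 to 1.396 for Lifr. Lifr, with 66 counts in all, was not tested under the filter of 100 counts. No paired analysis was possible because all 4 libraries belong to 1 group.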
